A study of Homo sapiens with 10 samples.

Results

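VPR was compared with VP64 in HEK293T cells, a human embryonic kidney line, over all genes measured by poly(A) RNA-seq. The comparison takes 4 of the 10 libraries of the series, the 2 titled VPR and the 2 titled VP64, and the expected count of every gene cluster in them. The cells were transfected by Lipofectamine 2000 with an activator built on dCas9, a Cas9 that binds DNA without cutting it, and with a guide RNA directed at HBG1. The other groups, used here for a shared estimate of spread and as reference levels, are SAM, Suntag and a control titled guide only, each with 2 libraries and the same target. SAM recruits p65 and HSF1 activation domains through hairpins in the guide, and Suntag recruits many VP64 copies through a peptide array. The question the comparison addresses is what changes in the transcriptome when p65 and Rta are joined to VP64.

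VP64 is a repeat of the activation domain of the herpes simplex virus protein VP16, which recruits Mediator and general transcription factors. In VPR it is followed by the activation domain of p65, the RelA subunit of NF-κB, and by that of Rta, the transactivator that starts the lytic cycle of Epstein-Barr virus. HBG1 encodes the gamma chain of fetal haemoglobin, a gene of erythroid cells that is normally silent in kidney-derived lines. The labels give neither the time after transfection nor the share of cells that took up the plasmids, and in such bulk samples a change in that share and a change of RNA per cell cannot be told apart.

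Reads were assigned to 31848 numbered gene clusters, whose transcript identifiers (hg19 build) the tables at hand do not pair with gene names. HBG1, RELA and the other genes of the lists set for this comparison, NF-κB targets among them, were therefore not tested, and markers of the cell line were not checked. Clusters are called here by their number or their transcript length. Expected counts, the estimated numbers of reads per cluster, summed to 5351863 and 3316534 in the VP64 libraries and to 5049833 and 7447949 in the VPR libraries. Enough counts for a test were present in 13241 clusters, which held 99.8% of the counts of each of the 4 libraries. Levels are given in CPM, a cluster's counts scaled to a fixed library total, and where different clusters are compared, in TPM, which also takes transcript length into account. Nothing in the labels says that the 2 libraries of a group came from separate cultures, so the spread behind each p-value is that between 2 libraries and may be technical. It was wider than counting noise alone would give. The chi-square per cluster came to 1.71 for the 2 VP64 libraries and to 2.71 for the 2 VPR libraries, and the Suntag libraries stood furthest apart with 6.27.

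VPR and VP64 were nearly alike in most of the transcriptome, and 1 cluster, number 4232, separated them. Cluster 4232 has 4 transcripts with a length of 831 nt. It held 0 and 0 counts in the VP64 libraries and 88 and 75 counts in the VPR libraries, all of them whole. The VPR libraries stood at 17.4 and 10.1 CPM, and VP64 at 0 in both, so the groups did not overlap. Per length, VPR reached 49.7 and 29.9 TPM, above 76.6% and 64.5% of the tested clusters in the same libraries. The cluster was thus absent from the reads of one group and of middle to upper rank in the other. With VP64 set to 3 counts summed over its 2 libraries, a floor of 0.346 CPM, VPR was 37.7-fold above that floor. The floor allows for counting error in VP64 only, and not for that in VPR or for spread between libraries. The difference between the groups passed edgeR's quasi-likelihood test at an adjusted p of 0.00216. The call ended without VP64 replicate 1, at an edgeR adjusted p of 0.0867. In the other activators the cluster stood at 71.1 ± 6.50 CPM in SAM and 15.8 ± 3.82 CPM in Suntag, and in the guide-only control at 0.247 ± 0.349 CPM (SD, n = 2 each). VPR was therefore near Suntag and below SAM in level, while VP64 was at the level of the control. The 2 clusters on either side of it in the list had too few counts to show whether they followed it. Of these 4 neighbours, 3 had 0 counts in both groups, and the next one had 1 count in VP64 and 1 in VPR.

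**Figure D1:**
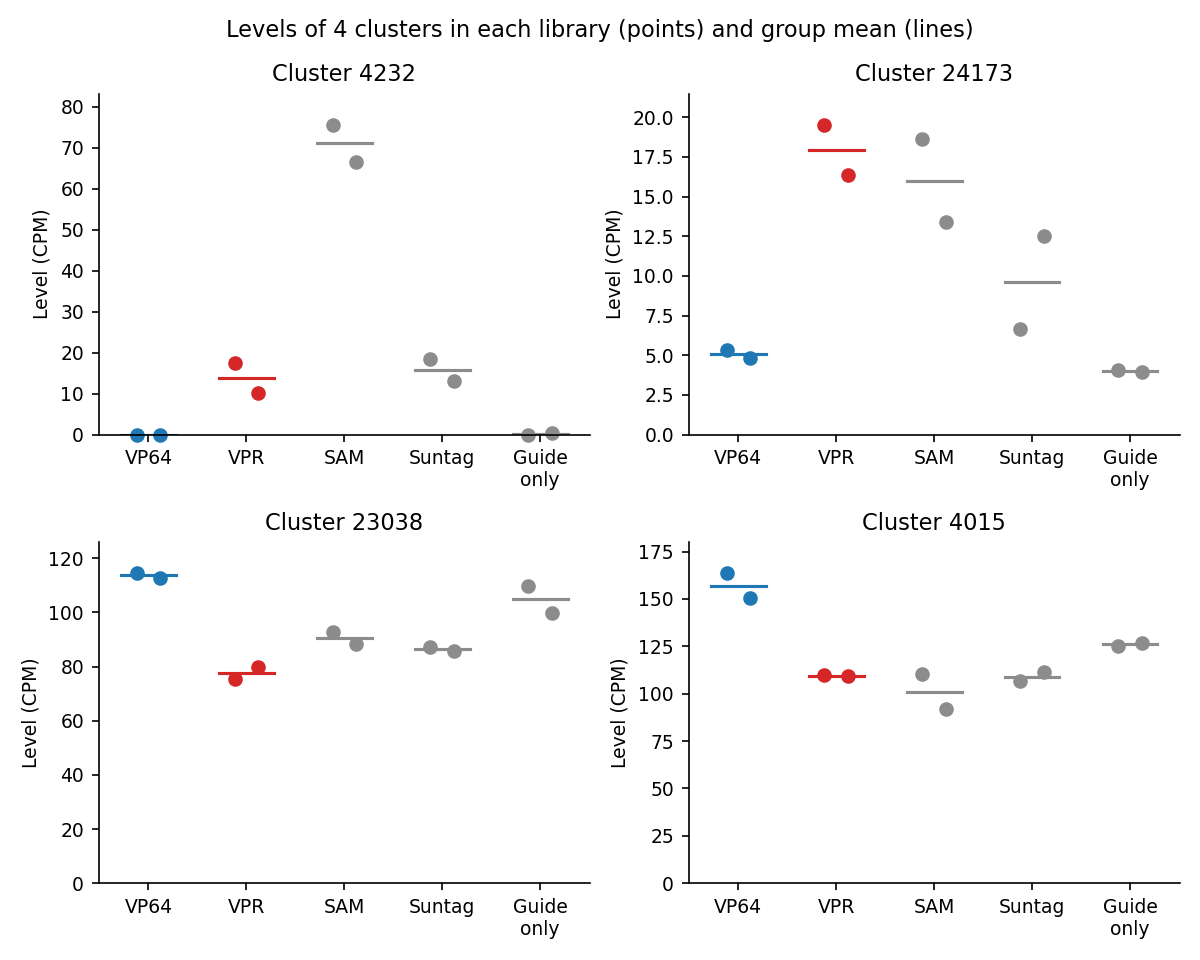
Level in CPM (vertical axes, from 0) of clusters 4232, 24173, 23038 and 4015 in each library (points) of the 5 groups (horizontal axes), with the mean of each group as a line. VPR lies above VP64 without overlap in the upper 2 panels and below it in the lower 2, and cluster 4232 is at 0 in both VP64 libraries.

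Beyond cluster 4232, no cluster passed the test in the fit of all 10 libraries. By edgeR at an adjusted p under 0.05, 1 cluster was higher and 0 were lower in VPR, 0.00755% of those tested in the former direction and 0% in the latter. An unadjusted p under 0.05 was reached by 1144 clusters, 8.64% of those tested, with 502 higher (3.79%) and 642 lower (4.85%). DESeq2, which by its own filter adjusted p-values for only the 919 most abundant clusters, called 11 of those, or 1.2%, with 4 higher (0.435%) and 7 lower (0.762%). Cluster 4232 was outside that filter. Without the filter, an alternative added after seeing the data, DESeq2 called 3 clusters of 13241, or 0.0227%, 2 higher and 1 lower, and cluster 4232 was called again with an adjusted p of 0.000227. The count differed widely between fits. Fitted on the 4 VPR and VP64 libraries alone, edgeR called 39 of 12654 clusters, 0.308%, with 11 higher and 28 lower in VPR. With no filter on low counts it called 83 of 19963, 0.416%, with 30 higher and 53 lower.

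Cluster 24173, of 4 transcripts and 1402 nt, ranked next among the higher clusters. It stood at 5.31 and 4.82 CPM in the VP64 libraries and at 19.5 and 16.3 CPM in the VPR libraries. Both VPR libraries were thus above both VP64 libraries, which the rule that named this cluster required and which held in 18.7% of tested clusters. The gap was wider than either pair spans. The fitted log2 difference was 1.83 ± 0.28 (SE), or 3.54-fold with a 95% interval from 2.35 to 5.35. It missed the threshold in the fit of all libraries, at an edgeR adjusted p of 0.056, and passed it in the fit of the 4 libraries alone, at 3.28e-05. The level was 18.6 and 13.4 CPM in SAM, 6.66 and 12.5 CPM in Suntag, and 4.08 and 3.92 CPM in the guide-only control. VP64 was again near the control, and VPR and SAM were the groups with the highest levels. Against that control the edgeR log2 change was 2.22 in VPR (adjusted p = 0.00104) and 0.40 in VP64 (adjusted p = 0.673), comparisons that share the same control libraries. Over all tested clusters 6.6% were called in VPR against the control, 4.58% higher and 2.02% lower, and 0.816% in VP64, 0.665% higher and 0.151% lower. The counts of cluster 24173 were not whole, by as much as 0.42, as in clusters whose reads RSEM divides with others. The cluster listed before it, of 1559 nt, held 3169 counts in VP64 and 5336 in VPR, with a log2 difference of 0.25 ± 0.08 (SE, edgeR adjusted p = 0.434). Both clusters were thus at higher levels in VPR, by very different amounts. Their counts summed were not whole either, by as much as 0.48, so this check does not show that they share reads.

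Among clusters with lower levels in VPR, very long transcripts led the ranking. Cluster 23038, of 3 transcripts and 10560 nt, stood at 115 and 113 CPM in the VP64 libraries and at 75.4 and 79.9 CPM in the VPR libraries. Its log2 difference was -0.53 ± 0.09 (SE), which puts VP64 1.45-fold above VPR. Cluster 4015, of 4 transcripts and 10768 nt, stood at 164 and 150 CPM in VP64 and at 110 and 109 CPM in VPR, with a log2 difference of -0.51 ± 0.09 (SE). The groups did not overlap in either cluster, which the rule that named them required and which held in this direction in 21.8% of tested clusters. Per length, cluster 23038 ranked near the middle, above 45.4% and 47.0% of tested clusters by TPM in the VPR libraries. Neither passed the test in the fit of all libraries, at edgeR adjusted p = 0.106 and 0.143. In the fit of the 4 libraries alone both did, at 0.00644 and 0.00437, and with the trend of each library on transcript length removed from that fit neither did, at 0.259 for both. The guide-only control stood at 105 ± 7.14 CPM for cluster 23038 and at 126 ± 1.30 CPM for cluster 4015 (SD, n = 2 each), below VP64 and above VPR in both. SAM stood at 92.9 and 88.2 CPM and Suntag at 87.2 and 85.7 CPM for cluster 23038. For cluster 4015 SAM stood at 110.2 and 91.8 CPM and Suntag at 106.5 and 111.3 CPM. All lay below VP64 and the control, and for cluster 4015 near or below VPR. The edgeR log2 change against the control was -0.13 for cluster 4015 in VPR (adjusted p = 0.447). In VP64 it was 0.38 (adjusted p = 0.0593). Cluster 23038 had -0.35 in VPR (adjusted p = 0.0289) and 0.18 in VP64 (adjusted p = 0.366). The counts of these clusters in the 4 libraries lay within 0.04 of whole numbers.

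**Figure D2:**
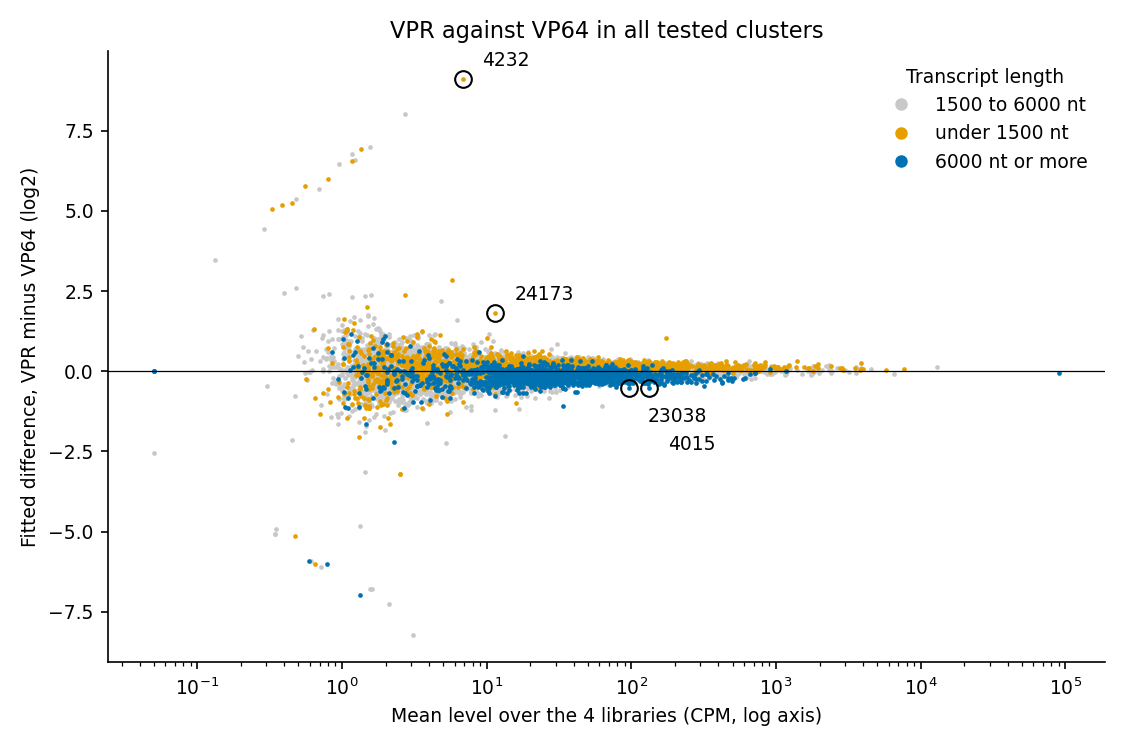
Fitted log2 difference of VPR minus VP64 (vertical axis) against the mean level over the 4 libraries in CPM (horizontal log axis) for each of the 13241 tested clusters, coloured by transcript length, with the 4 clusters named in the text circled. Clusters with 6000 nt or more lie mostly below 0 and clusters under 1500 nt mostly above it, and the large fitted values at low levels come from clusters with counts near 0 in one group.

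The 39 clusters called in the fit of the 4 libraries alone fell into sets by size and transcript length. Of the 28 lower in VPR, 23 differed by less than 2-fold, and 19 had transcripts of 6000 nt or more, a class that holds 10.5% of the 12654 clusters of that fit. Their median length was 7057 nt, against 1331 nt among the 11 higher ones. Of the 11 that differed by at least 2-fold, 6 higher and 5 lower, only cluster 4232 had counts within 0.05 of whole numbers in the 4 libraries. The other 10 had counts that are not whole, and 2 of the 5 lower ones, both of 1369 nt, had the same counts in all 10 libraries, so that the 39 calls hold 38 distinct sets of counts. One of them, a cluster of 1 transcript and 978 nt, stood at 108 and 123 CPM in VP64 and at 211 and 258 CPM in VPR, but at 219 and 0 CPM in the 2 Suntag libraries and at 0 and 60.5 CPM in the guide-only libraries. Its log2 difference of 1.05 ± 0.09 (SE) had an edgeR adjusted p of 2.81e-08 in the 4 libraries and of 0.781 in all 10. A cluster of 2 transcripts and 1331 nt stood at 1.15 and 1.72 CPM in VP64 and at 12.1 and 8.19 CPM in VPR. In this cluster too the other groups were split, with 1.16 and 7.21 CPM in SAM, 7.32 and 0.998 CPM in Suntag, and 1.47 and 6.92 CPM in the control. The libraries of 1 group thus differed by as much as VPR and VP64 did. In the opposite direction, a cluster of 1 transcript of 301 nt stood at 22.8 and 19.7 CPM in VP64 and at 11.6 and 9.80 CPM in VPR, without overlap, and passed edgeR's test in the 4 libraries (adjusted p = 0.00743) and not in all 10 (adjusted p = 0.436). It is the shortest of the 39, it lay at 4.10 and 2.54 CPM in the guide-only control, and its counts are not whole either. In SAM it lay at 22.2 and 21.4 CPM and in Suntag at 15.2 and 4.78 CPM, so the Suntag libraries were split here too.

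Small differences between VPR and VP64 followed transcript length over the whole range. In clusters under 700 nt, 96 of 247, or 38.9%, were higher in both VPR libraries than in both VP64 libraries, and 17, or 6.88%, were lower in both. In clusters of 9000 nt or more, 13 of 299, or 4.35%, were higher and 154, or 51.5%, were lower. Over all tested clusters these shares were 18.7% and 21.8%. The share with lower levels in VPR was thus highest among the longest transcripts, while by number the class with most of these clusters, 1398 of 2889, was that of 3000 to 6000 nt. The median log2 difference of VPR minus VP64 was 0.12 under 700 nt, 0.12 from 700 to 1500 nt, 0.05 from 1500 to 3000 nt, -0.05 from 3000 to 6000 nt, -0.13 from 6000 to 9000 nt and -0.21 from 9000 nt upwards. It fell in each step from 700 to 1500 nt upwards, and each of these medians is well below 1.5-fold. At an unadjusted p under 0.05, 28.8% of the clusters of 9000 nt or more were lower and 0 of 299 were higher.

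Each library was also summarised by the median deviation of clusters under 700 nt from their mean over all 10 libraries, less that of clusters over 3000 nt. This measure was 0.11 and 0.12 log2 units in the VP64 libraries and 0.36 and 0.22 in the VPR libraries. The VPR libraries were both above the VP64 libraries and differed more from each other than the VP64 libraries did. The mean difference of 0.17 compares with an SD of 0.07 between libraries of a group, taken over VPR and VP64. In the other activators the libraries of a group lay further apart, with an SD of 0.14 in SAM and 0.17 in Suntag. An exact permutation test over the 4 libraries gave a two-sided p of 0.333, which is the smallest that 2 against 2 allow. The guide-only control stood at -0.32 ± 0.02 (SD, n = 2), so both activators lay on the same side of it. The mean fragment length, taken as transcript length less effective length, was 103 and 123 nt in the VP64 libraries and 111 and 113 nt in the VPR libraries. The VP64 values lie on either side of the VPR values, and the group means were 113 and 112 nt. The part of fragment size in the length trend was not tested. Without VPR replicate 1 the difference was 0.10, against 0.17. With this trend taken out of the fit of all 10 libraries, cluster 4232 was again the only call, and with it taken out of the fit of the 4 libraries there were 12 calls, 6 in each direction, in place of 39.

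**Figure D3:**
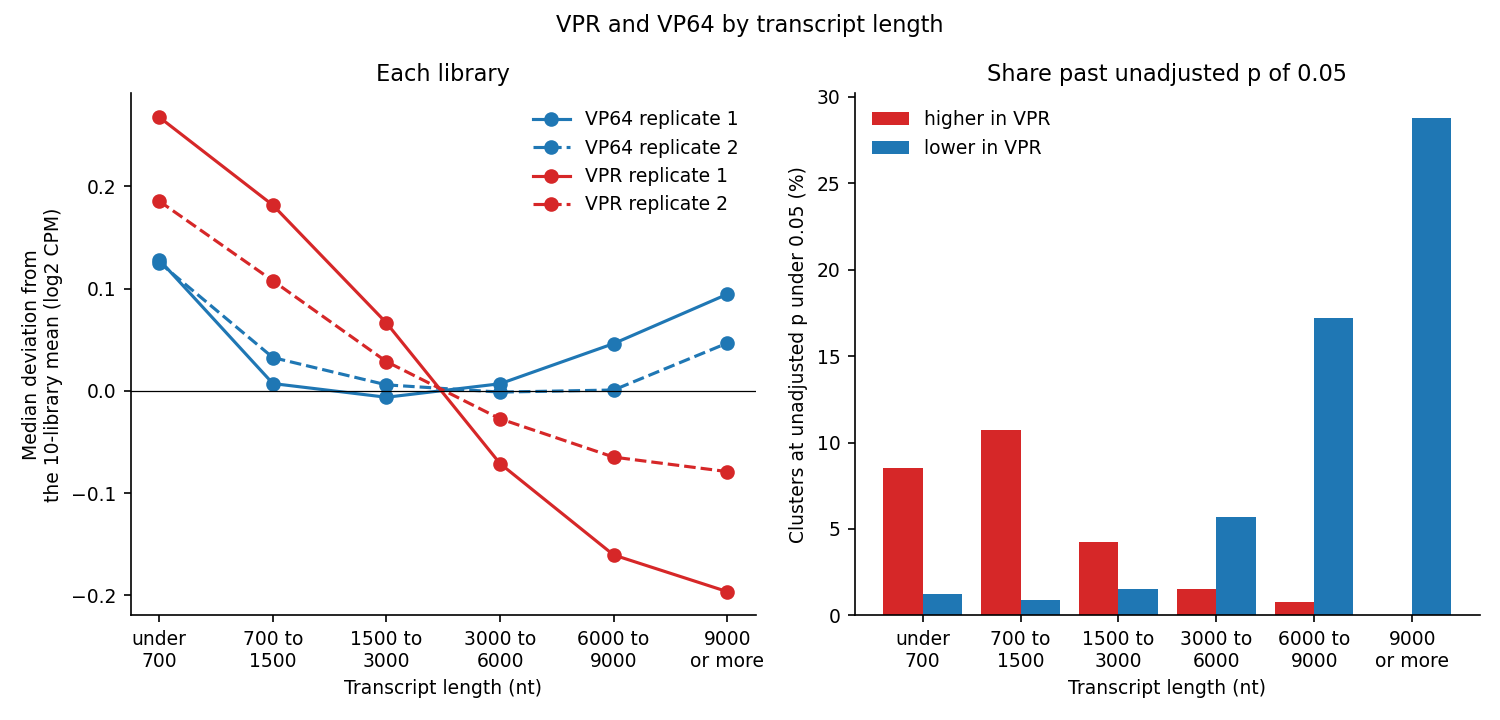
Left, median deviation in log2 CPM from the mean of all 10 libraries (vertical axis) for each VP64 and VPR library in 6 classes of transcript length in nt (horizontal axis). Right, percent of clusters in each class at an unadjusted p under 0.05 that were higher (red) or lower (blue) in VPR, with 28.8% lower and none of 299 higher at 9000 nt or more; both VPR lines fall with length and cross the VP64 lines between 1500 and 6000 nt.

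The fit also gives how large a difference between VPR and VP64 could have gone unseen. A 95% interval of the log2 difference was available for 13230 clusters, and the other 11 had no counts in the 4 libraries. The whole interval lay within 2-fold in 11081 of them, or 83.8%, and within 1.5-fold in 8453, or 63.9%. For these clusters a larger difference between the activators is outside the interval. This depended on level. Over 200 CPM the interval was within 1.5-fold in 752 of 759 clusters, and from 50 to 200 CPM in 98.2% of 3331. From 10 to 50 CPM the share was 76.4%, from 2 to 10 CPM it was 5.89%, and under 2 CPM it was 0 of 756. In this lowest class the interval's half-width had a median of 2.51-fold, so that differences of 2-fold were not detectable there at this depth. The 7 abundant clusters with an interval reaching past 1.5-fold had log2 differences from -0.46 to 0.21, 3 higher and 4 lower in VPR.

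**Figure D4:**
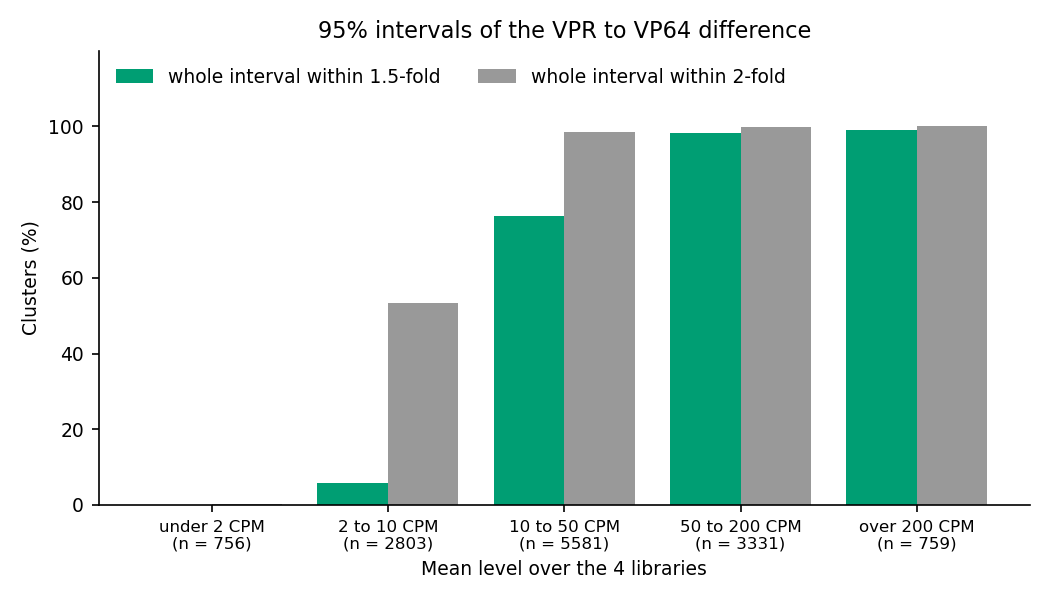
Percent of clusters (vertical axis) whose whole 95% interval of the VPR to VP64 difference lies within 1.5-fold (green) or 2-fold (grey), in 5 classes of mean level in CPM (horizontal axis) with the number of clusters in each. The share within 1.5-fold is 99.1% over 200 CPM, 5.89% at 2 to 10 CPM and 0 under 2 CPM.

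Over all tested clusters, libraries of different activators were about as far apart as libraries of the same one. The median absolute log2 difference was 0.16 between the 2 VPR libraries and 0.14 between the 2 VP64 libraries. Across the 4 pairs of a VPR and a VP64 library it ran from 0.15 to 0.18, with the larger values in the pairs that hold VPR replicate 1. In clusters over 200 CPM it was 0.08 within VPR, 0.05 within VP64 and 0.08 to 0.12 across the groups. In these abundant clusters all 4 pairs across the groups thus lay further apart than either pair within a group.

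Clusters found in the reads of only 1 of the groups were few and mostly at low counts. Over all 31848 clusters, 275 had counts in both VPR libraries and 0 in both VP64 libraries, and 118 had the reverse. The VPR libraries are together the deeper pair, and the medians of the summed counts were 3 and 2.08. Only 6 clusters, all in the former set, had at least 20 summed counts. Cluster 4232 was the highest with 163, the next had 56.5, and 5 of the 6 had counts that are not whole.

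Lists of clusters were also taken from the other activators. The VPR and VP64 libraries entered them only through the filter on low counts, the scaling and the estimate of spread, which the fit of 10 libraries shares. Clusters were called against the guide-only control in SAM or in Suntag by edgeR at an adjusted p under 0.05, 5.2% of tested clusters in SAM, 2.27% higher and 2.94% lower, and 1.33% in Suntag, 0.989% higher and 0.34% lower. Of the 300 clusters higher in SAM, 209 had a higher level in VPR than in VP64, or 69.7%, with a median log2 difference of 0.12. Of the 389 lower in SAM, 275 had a lower level in VPR, or 70.7%, with a median of -0.08. Of the 131 higher in Suntag, 118 had a higher level in VPR, or 90.1%, with a median of 0.17, and of the 45 lower in Suntag, 36 had a lower level, or 80.0%, with a median of -0.10. Over all 13241 tested clusters 50.4% had a higher level in VPR and the median was 0.00. In each of these lists VPR thus lay further in the direction of SAM or Suntag than VP64 did, by a small amount. Cluster 4232, the only call between VPR and VP64 in all 13241 tested clusters (0.00755%), was in the lists of clusters higher in SAM and higher in Suntag.

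The lists also differ in transcript length. The median length was 1097 nt for clusters higher in Suntag and 4302 nt for those lower, 2215 nt for clusters higher in SAM and 3548 nt for those lower, against 2878 nt over all tested. With the length trend removed the median was 0.08 for clusters higher in SAM and -0.05 for those lower, and 0.06 and -0.04 for Suntag, so the directions held while the values fell. Among the 73 clusters at least 2-fold higher in SAM the median was -0.02, with 35 higher and 38 lower in VPR than in VP64. The differences of these clusters thus showed no such shift. Their median deviations per library were -0.067 and -0.072 log2 units in VPR and -0.133 and -0.128 in VP64, so the measures differed in direction. Per library, the clusters higher in Suntag had median deviations of 0.23 and 0.13 log2 units in VPR and of -0.03 and 0.02 in VP64, without overlap. The clusters higher in SAM had 0.07 and 0.04 in VPR and -0.08 and -0.03 in VP64.

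**Figure D5:**
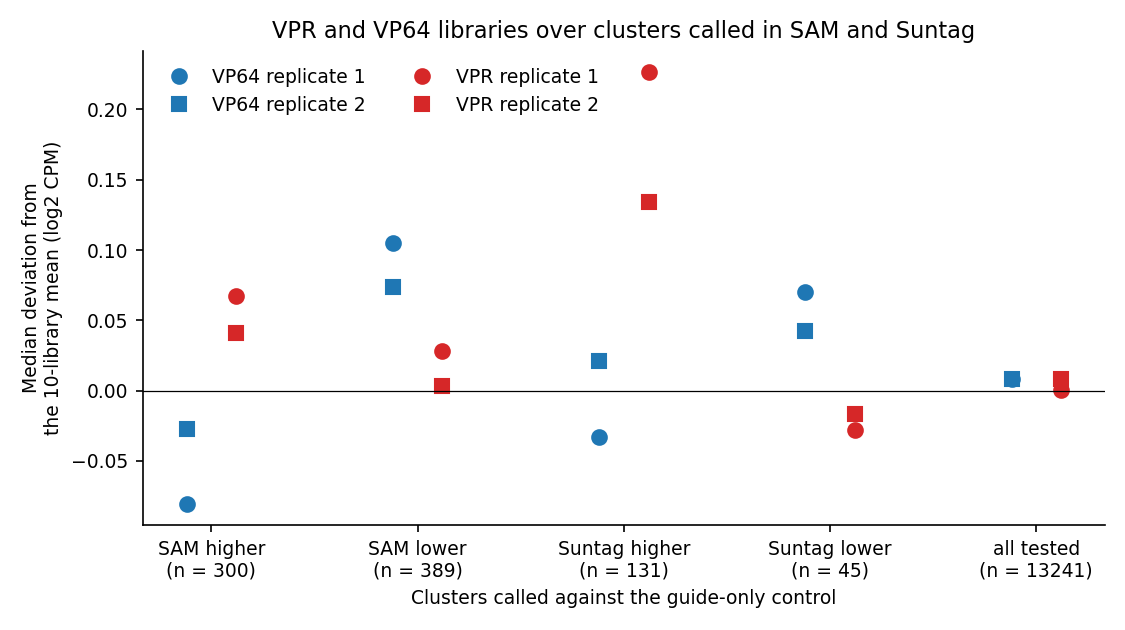
Median deviation in log2 CPM from the mean of all 10 libraries (vertical axis) of each VP64 (blue) and VPR (red) library, over clusters called higher or lower in SAM or Suntag against the guide-only control and over all tested clusters (horizontal axis, with their numbers). Both VPR libraries lie above both VP64 libraries in the lists of higher clusters and below them in the lists of lower ones.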

How the data were processed

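Per the labels' protocols, RNA was poly(A)-selected, primed with random hexamers and made into libraries by tagmentation, which does not mark the strand. Per the submitters' processing notes, the authors used RSEM 1.2.1 with hg19; which transcript annotation was used is not stated in them. The deposited values are RSEM's expected counts, which are estimated and need not be whole, and TPM, scaled by effective length; the authors' FPKM column was not used. Transcript and effective lengths are per the file headers, and the median length over the 10 libraries was used.

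After rounding, the counts went through edgeR 4.0.16 in R 4.3.3, with filterByExpr for low counts and TMM scaling. Its quasi-likelihood test was run on 1 model of 10 libraries in 5 groups (5 residual degrees of freedom), with Benjamini-Hochberg adjustment over all tested clusters, threshold 0.05. SE is the log2 difference divided by the square root of F, and 95% intervals use the t distribution. Alternatives were RLE factors, DESeq2 1.42.0, no filter, 4 libraries alone, a replicate block, each library left out, a 2-fold minimum, effective-length offsets and removal of a loess trend on length. Named clusters were the called one, then those with the smallest p at a mean of at least 1 CPM without overlap, 1 higher and 2 lower; clusters described by length alone were chosen after their values were seen. Members and lists were chosen with earlier results of these data known.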

Additional observations from a re-analysis of the deposited data

How the results depend on the processing

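Depth limits clusters under 10 CPM most. The number of clusters with a 95% interval within 2-fold ran from 9957 to 11399 over the alternatives, and the difference by transcript length from 0.10 to 0.24. The direction of cluster 4232 and of clusters 24173, 23038 and 4015 was the same in each alternative computed for them, 13 for the first and 12 for each of the others. This was largely set in advance. The alternatives reuse the same counts, cluster 4232 had 0 counts in VP64, and the others were named for not overlapping. The number of calls was 1 with RLE factors, an effective-length offset, a 2-fold minimum or the length trend removed, and rose to 83 with no filter on low counts, 39 with the 4 libraries alone and 11 in DESeq2. Alternatives added after seeing the data gave 3 calls in DESeq2 without its filter, 12 with the 4 libraries alone and the length trend removed, and 5 with both Suntag libraries left out. The cause of these differences was not tested. The common coefficient of variation between replicates was 7.02% in the fit of 10 libraries and 5.77% in that of 4. Leaving out 1 library gave 1 to 3 calls. The single call without VP64 replicate 1 was a lower cluster, not 4232, there were 3 without VPR replicate 1 or 2, and 2 without Suntag replicate 1 or 2. The fitted log2 difference of cluster 4232, against 0 counts and no measure of size, ran from 8.74 to 9.47 without 1 library. Where 1 library is left, it is assumed to vary like the other groups.

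With the replicate block there was again 1 call, cluster 4232 at an edgeR adjusted p of 0.000393. The labels do not say whether libraries with the same replicate number were handled together. The deviations of same-numbered VP64 and VPR libraries had a correlation of -0.05 across clusters, which with 2 libraries per group cannot settle this.

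For clusters higher in SAM the median difference was 0.0812 with the length trend removed, -0.0152 for the list of at least 2-fold, and 0.10 to 0.16 without 1 library. For those lower in SAM it was -0.0470 with the trend removed and -0.0884 to -0.0527 without 1 library. For Suntag it was 0.0592 with the trend removed, 0.00 at 2-fold and 0.14 to 0.22 without 1 library among higher clusters, and -0.0376, -0.0327 and -0.12 to -0.0553 among lower ones.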
